A study of Mus musculus with 4 samples.

Results

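The potassium channel genes described here are the genes whose array annotation gives exactly 1 symbol beginning with Kcn, leaving out the KATP pore gene Kcnj11 and the noncoding RNA Kcnq1ot1. There are 88 of them among the 22180 genes with 1 symbol, measured by 95 probe sets, and the brightest probe set stood for each of the 7 genes that had more than 1. They comprise 70 genes of pore-forming or silent channel subunits, 17 genes of auxiliary subunits and regulators, and 1 opposite-strand RNA, Kcnd3os. Further genes of the superfamily, among them those whose probe sets carry several symbols, are not analysed here.

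RNA came from Beta-TC-6 cells, an established line from a mouse beta cell tumour driven by a viral T antigen. The siNF45 group (2 arrays) was transfected with pooled RNA duplexes against NF45, the product of Ilf2, and the siNTC group (2 arrays) with a negative control siRNA. Both groups shared the lipid transfection and a medium with 25 mM glucose and 15% serum. Nothing in the labels tells whether replicates were transfected separately, and the p-values thus reflect a spread between samples that may be only technical.

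Potassium channels are membrane pores that let potassium leave the cell and so bring the membrane back to rest. In beta cells the KATP channel sets the resting potential, and voltage-gated and calcium-activated potassium channels end each action potential and so limit calcium entry and insulin release. Kv, KCNQ and EAG channels open on depolarisation, Kir channels pass current best near rest, K2P channels leak at most potentials, and a further group opens on calcium or sodium.

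The values are the log2 expression values deposited for each probe set, and a difference is siNF45 minus siNTC on that scale. A gene was called expressed here when its mean over the 4 arrays reached the median of all probe sets, 1.65, which served as a signal floor in the absence of a detection call. The 70th percentile of all probe sets, 2.75, gave a stricter level. Brightness depends on the probes, so values are compared between groups for 1 gene and not between genes. The target Ilf2 read 3.67 and 3.77 in siNF45 and 5.79 and 5.98 in siNTC, a difference of -2.17 (SE 0.13, limma adjusted p = 0.020). Of 7 beta cell markers, 6 were above the floor, with a log2 summed level of 11.13 and 11.14 in siNF45 and 11.16 and 11.08 in siNTC. Of 16 markers of cells outside the islet, 5 were above it, with differences from -0.19 to 0.67. All 15 that had a probe set, dim ones included, gave a log2 summed level of 5.75 and 5.72 in siNF45 and 5.64 and 5.53 in siNTC. The duct keratin Krt7 read 3.91 and 3.96 in siNF45 and 3.41 and 3.13 in siNTC, a difference of 0.67 (SE 0.14, limma adjusted p = 0.132). Of 4 markers of other islet cells, 3 were above it, namely Gcg, Sst and Ppy. The log2 summed level of all 4, with the dim Ghrl, was 8.96 and 8.85 in siNF45 and 9.66 and 9.31 in siNTC. Within that sum Sst, the delta cell hormone somatostatin, differed by -0.89 (SE 0.16, limma adjusted p = 0.103). What part Krt7 or Sst has in the results was not tested.

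Of the 88 potassium channel genes, 34 reached the floor and 20 the stricter level. That is 38.6% at the floor, beside 52.9% of all genes with 1 symbol. The group means counted separately gave 34 genes in siNF45 and 34 in siNTC, but not all the same genes. Kcnk6, Kcnt1 and Kcnk13 reached the floor by their siNF45 mean only. Kcnc1, Kcnh4 and Kcnn1 did so by their siNTC mean only. By subfamily, 10 of 25 Kv genes, 1 of 3 KCNQ genes, 5 of 8 EAG genes, 2 of 13 Kir genes, 6 of 13 K2P genes, 3 of 8 calcium- and sodium-activated genes and 7 of 17 auxiliary genes reached it. The closest genes on either side of the floor were Kcnc1 and Kcnt1 inside it, both at a mean of 1.65, and Kcnk13 outside it at 1.64.

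**Figure D1:**
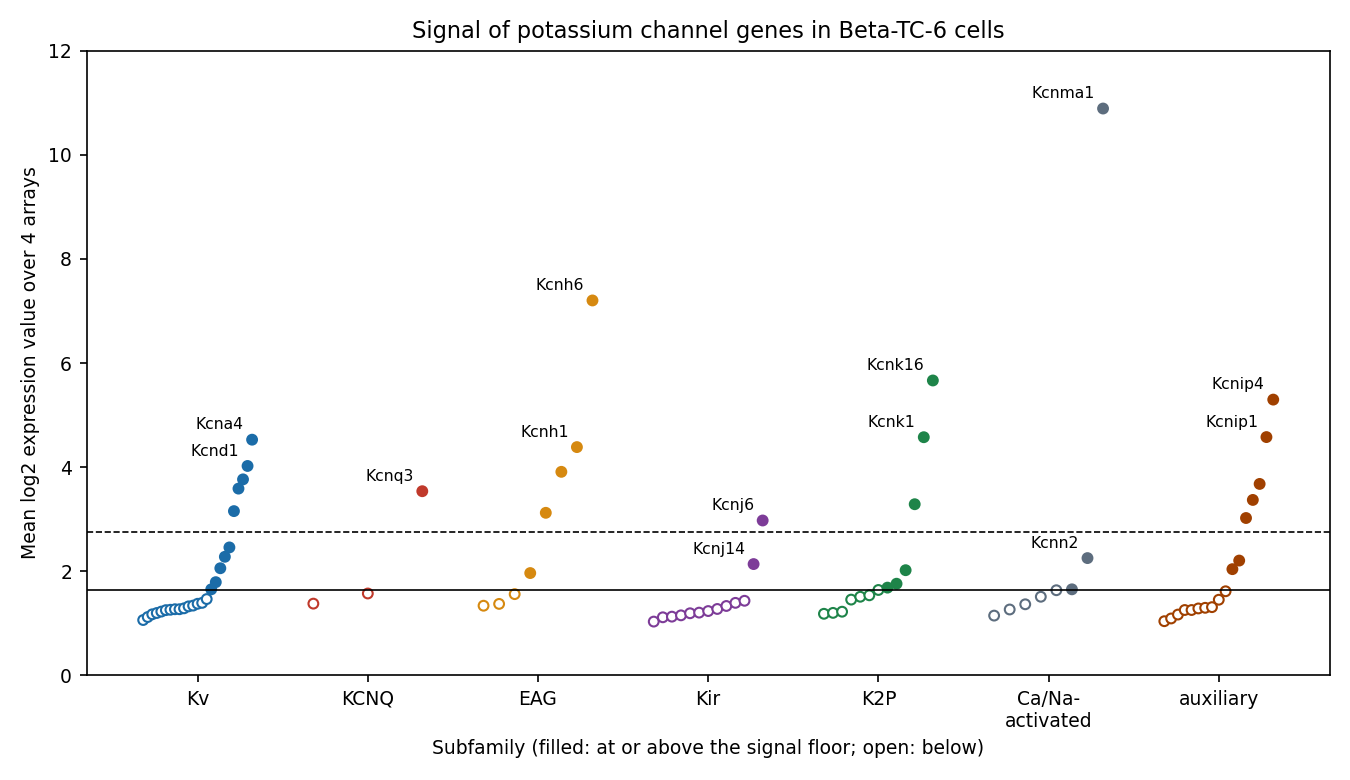
Mean log2 expression value over the 4 arrays (vertical axis) of each gene, by subfamily (horizontal axis), sorted within it; filled points reach the signal floor of 1.65 (solid line) and the dashed line is the 70th percentile of probe sets, 2.75. Filled points number 10 in Kv, 1 in KCNQ, 5 in EAG, 2 in Kir, 6 in K2P, 3 in the calcium- and sodium-activated group and 7 among auxiliary genes, and Kcnma1 lies apart at 10.89 on its brightest probe set, while its other probe set averaged 5.02.

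The KCNQ gene Kcnq3 had the largest difference of the 34 genes above the floor. KCNQ channels carry the M-current, a slow voltage-gated current that restrains repeated firing, and the product of Kcnq3 works mostly in mixed channels with other KCNQ subunits. Kcnq3 read 2.39 and 2.51 in siNF45 and 4.54 and 4.71 in siNTC. Both siNF45 arrays lay more than 2 units below both siNTC arrays, under the stricter level of 2.75 but still above the floor of 1.65. Its mean fell to 2.45 ± 0.08 in siNF45, against 4.63 ± 0.12 in siNTC (SD, n = 2 each), a difference of -2.18 (SE 0.13, 95% interval -2.50 to -1.85, limma adjusted p = 0.020). In such bulk samples, fewer cells that express a gene and less of its RNA per cell cannot be told apart. Kcnq3 was the only 1 of the 34 genes to pass as designed, and it was lower, beside 0.0766% of all 11742 tested genes that passed and were lower and 0.00852% that passed and were higher. No gene passed, Kcnq3 included, without siNF45 replicate 1, siNF45 replicate 2, siNTC replicate 1 or siNTC replicate 2, where its difference ran from -2.26 to -2.09 and its limma adjusted p from 0.306 to 0.471.

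The other KCNQ genes with a probe set here were below the floor. Kcnq1, a pore subunit of epithelia and heart, averaged 1.45 in siNF45 and 1.31 in siNTC. Kcnq5, a partner of Kcnq3 in neurons, averaged 1.58 in siNF45 and 1.57 in siNTC on its brightest probe set, and its other probe set was dimmer. Kcnq3 is annotated at chr15:65986374-66286636 in GRCm38.p6. Among its nearest protein-coding neighbours that were tested, the membrane-associated Efr3a differed by -0.08 (SE 0.14), Tmem71 by 0.03 (SE 0.17) and Phf20l1 by -0.01 (SE 0.12). Hhla1, Oc90 and Lrrc6, which lie closest to it, were below the floor.

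EAG channels are the ether-a-go-go relatives, which include the slowly opening Eag channels and the Erg channels that pass current as the membrane repolarises. Of the 5 EAG genes above the floor, 4 lay below 0 and 1 above, beside 61.3% of all tested genes below 0. The median difference of the 5 was -0.32 beside -0.07 over all tested genes. None passed the adjusted threshold. At an unadjusted p under 0.05 there were 3 lower and 0 higher, beside 13.2% and 4.02% of all tested genes. With quantile normalization the EAG median was -0.23, beside -0.0175 over all tested genes. Centring the arrays shifts every gene by the same amount, and gave -0.19 beside 0.065.

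Kcnh1, an Eag pore subunit, read 4.06 and 3.71 in siNF45 and 4.93 and 4.84 in siNTC. The groups did not overlap, as for 32.6% of all tested genes in the lower direction. It differed by -1.0 (SE 0.16, 95% interval -1.39 to -0.61, limma adjusted p = 0.086). Kcnh2, an Erg subunit best known from cardiac repolarisation, read 2.83 and 2.81 in siNF45 and 3.69 and 3.16 in siNTC. The siNTC arrays were further apart from each other than the siNF45 arrays, and the difference was -0.61 (SE 0.19, limma adjusted p = 0.220), or -0.34 without siNTC replicate 1. Kcnh5, the other Eag pore subunit, read 3.80 and 3.70 in siNF45 and 4.09 and 4.05 in siNTC. It differed by -0.32 (SE 0.12, limma adjusted p = 0.261).

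Kcnh6, an Erg subunit, was well above the floor in every array and near 0 in its difference. It read 7.19 and 7.24 in siNF45 and 7.27 and 7.11 in siNTC. The groups overlapped, and the difference was 0.03 with a 95% interval of -0.29 to 0.34, which turned to -0.06 without siNTC replicate 2. Kcnh7, the remaining Erg subunit, averaged 1.89 in siNF45 and 2.04 in siNTC. Kcnh3, Kcnh4 and Kcnh8, of the Elk branch, were below the floor.

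**Figure D2:**
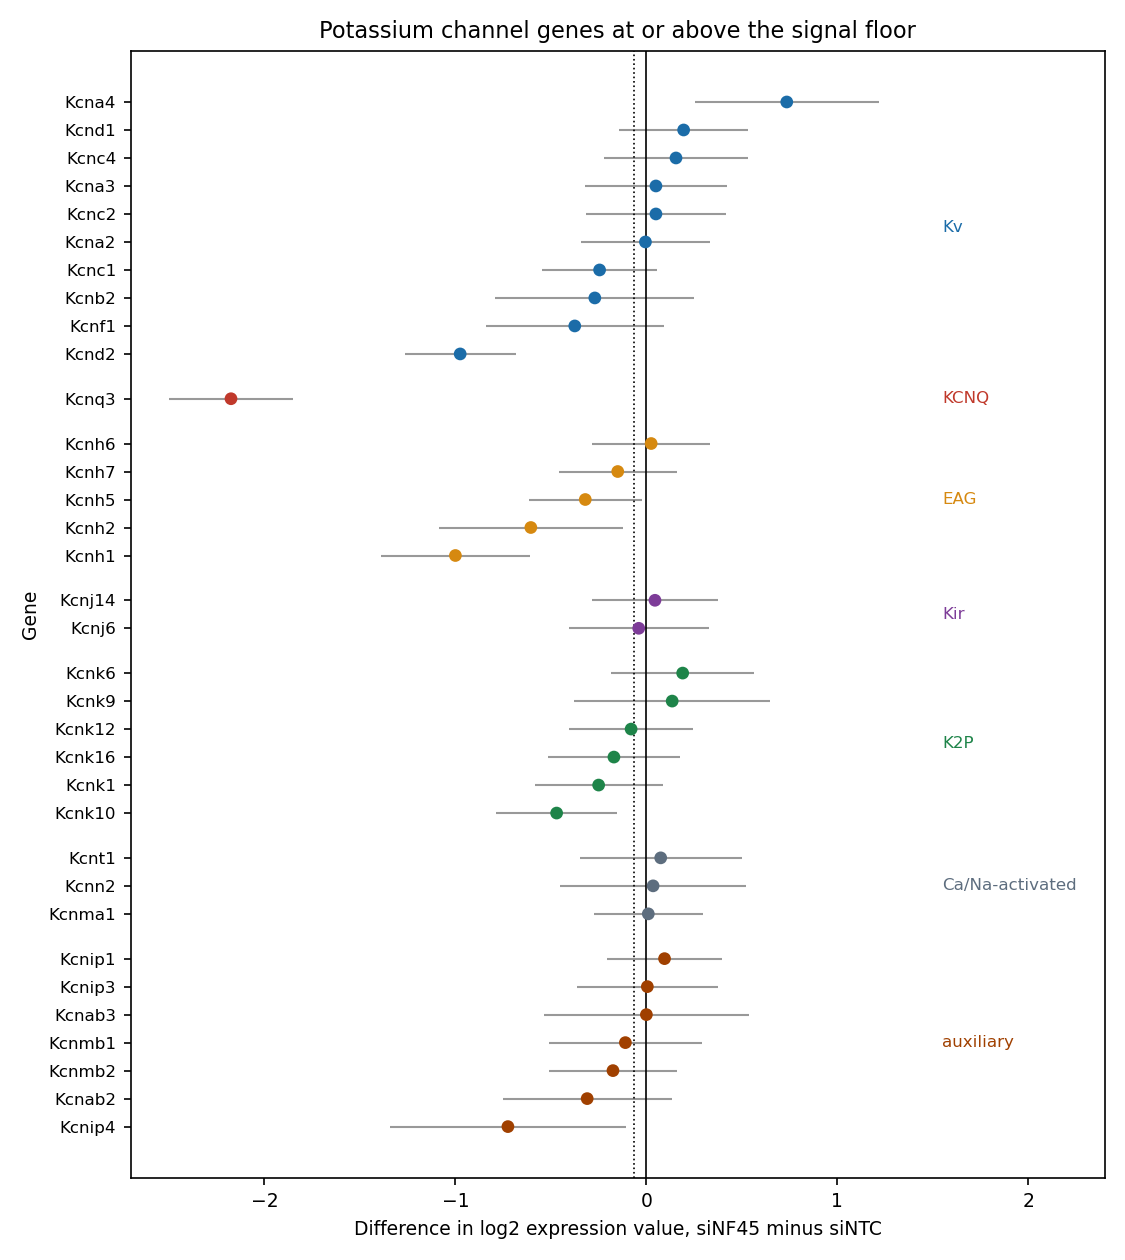
Difference in log2 expression value, siNF45 minus siNTC (horizontal axis), of the 34 genes above the signal floor, by subfamily; points are fitted differences, grey bars their 95% intervals, the solid line is 0 and the dotted line the median of all tested genes, -0.07. Kcnq3 lies at -2.18, Kcnh1 and Kcnd2 near -1.0, and Kcna4 furthest to the right at 0.74.

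The 10 Kv genes above the floor went both ways, 5 below and 5 above 0, beside 61.3% of all tested genes below 0. The median difference of the 10 was 0.02. Kv channels are the classical delayed rectifiers and A-type channels of excitable cells. None passed, and at an unadjusted p under 0.05 there was 1 lower and 1 higher, beside 13.2% and 4.02% of all tested genes. The lower one was Kcnd2, which encodes a pore subunit of the fast-inactivating A-type current. Kcnd2 read 3.10 and 3.10 in siNF45 and 4.11 and 4.04 in siNTC. Replicates were nearly equal in both groups, and the difference was -0.98 (SE 0.12, 95% interval -1.26 to -0.69, limma adjusted p = 0.071). With Kcnq3 and Kcnh1 it made 3 of 34 genes lower at an adjusted p under 0.10, beside 1.36% of all tested genes. Higher at that threshold were 0 of 34, beside 0.255%.

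Kcna4, another A-type pore subunit, read 5.12 and 4.67 in siNF45 and 4.30 and 4.02 in siNTC. Both siNF45 arrays were above both siNTC arrays, which held for 15.2% of all tested genes in this direction. The difference was 0.74 (SE 0.20, 95% interval 0.25 to 1.22, limma adjusted p = 0.165), and a second, dim probe set differed by 0.07. Kcnd1, a relative of Kcnd2 in the same A-type family, read 4.17 and 4.07 in siNF45 and 3.81 and 4.04 in siNTC. It differed by 0.20 with a 95% interval of -0.14 to 0.53, or by 0.08 without siNTC replicate 1. The intervals of Kcnd1 and Kcnd2 did not overlap, though the difference between the genes was not tested.

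The other Kv genes above the floor did not pass. Kcnb2, a delayed rectifier pore subunit, differed by -0.27 (95% interval -0.79 to 0.25), with siNF45 arrays at 3.30 and 2.74 and siNTC arrays at 3.19 and 3.39. Kcnc2 and Kcnc4 differed by 0.05 and 0.16, and the related Kcnc1 by -0.25 (SE 0.12, limma adjusted p = 0.371) right at the floor. Kcnc1 averaged 1.53 in siNF45, under the floor, and 1.78 in siNTC. Kcna2 differed by -0.01 and Kcna3 by 0.05. Kcnf1, a silent subunit that forms no channel alone, read 2.30 and 1.88 in siNF45 and 2.33 and 2.60 in siNTC. It differed by -0.38 (SE 0.19, limma adjusted p = 0.374), or by -0.165 without siNF45 replicate 2. The 15 Kv genes below the floor had means from 1.06 to 1.47 and included all Kcng, Kcns and Kcnv genes, the other silent subunits.

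**Figure D3:**
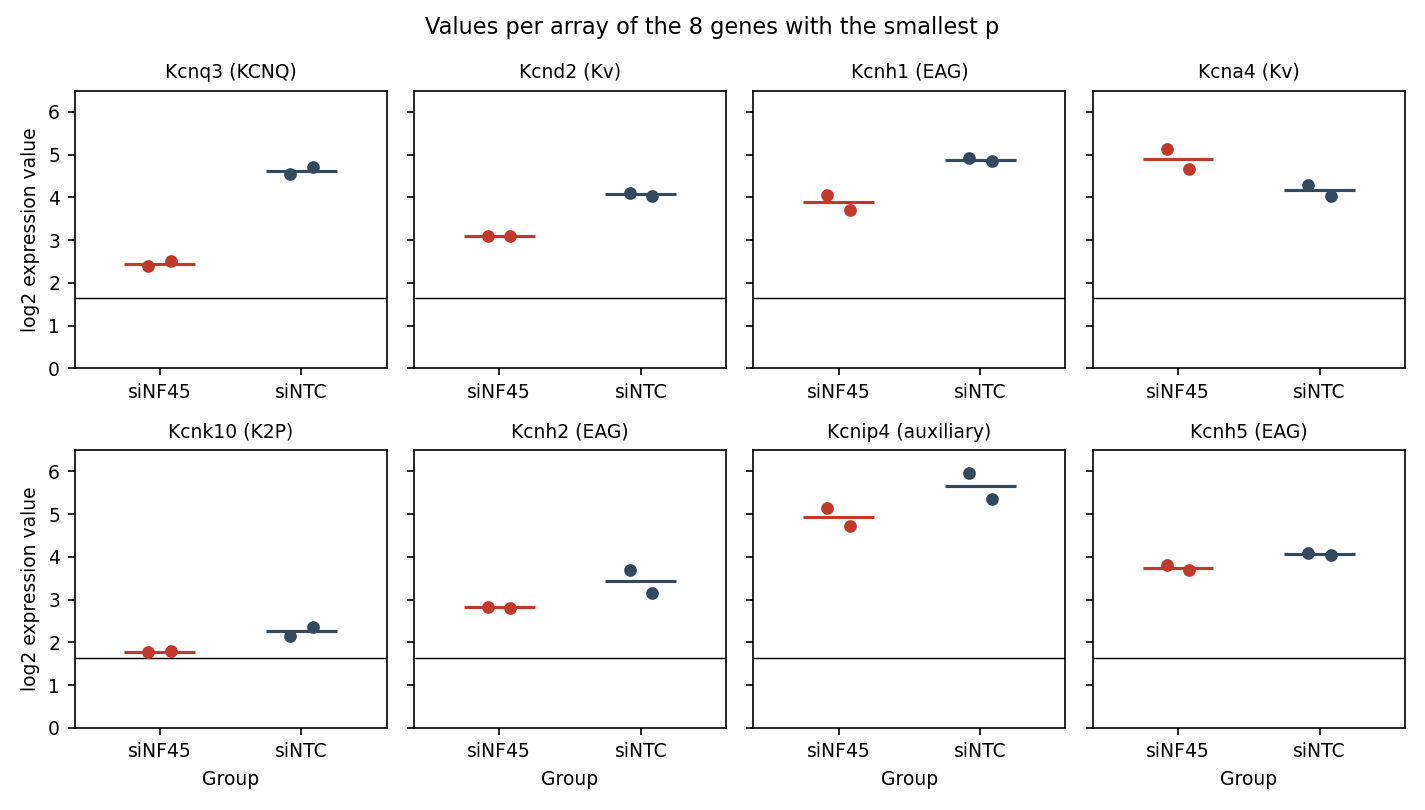
Log2 expression values per array (vertical axis) of the 8 genes with an unadjusted p under 0.05, in siNF45 and siNTC (horizontal axis); points are arrays, bars group means and the thin line the signal floor of 1.65. The groups are apart in each panel, with siNF45 lower except for Kcna4, but the panels were picked by that p. Of all tested genes, 32.6% were apart in the lower direction and 15.2% in the higher.

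Start-site windows are shown for Kcnd2 and Kcnh1, which lay nearest the threshold after Kcnq3 in the lower direction, and for Kcna4, which lay nearest in the other. The sequences are RefSeq windows of 300 bases in GRCm38.p6, all on the plus strand, with each CG dinucleotide in capitals, since windows rich in CG mark the broad promoters common among expressed genes. They lie at chr6:21215096-21215395 for Kcnd2, chr1:192190527-192190826 for Kcnh1 and chr2:107290339-107290638 for Kcna4. The gene span of Kcnh1 is annotated from 192189144, so its window lies inside that span. No window is shown for Kcnq3, because the set of windows used held none for it.
Kcnd2: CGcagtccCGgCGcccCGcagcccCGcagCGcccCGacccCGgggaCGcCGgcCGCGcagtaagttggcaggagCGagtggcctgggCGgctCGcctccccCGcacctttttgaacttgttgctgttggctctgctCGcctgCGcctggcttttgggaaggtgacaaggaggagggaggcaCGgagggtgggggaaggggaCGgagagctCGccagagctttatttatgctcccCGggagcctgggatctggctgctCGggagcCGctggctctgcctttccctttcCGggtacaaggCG
Kcnh1: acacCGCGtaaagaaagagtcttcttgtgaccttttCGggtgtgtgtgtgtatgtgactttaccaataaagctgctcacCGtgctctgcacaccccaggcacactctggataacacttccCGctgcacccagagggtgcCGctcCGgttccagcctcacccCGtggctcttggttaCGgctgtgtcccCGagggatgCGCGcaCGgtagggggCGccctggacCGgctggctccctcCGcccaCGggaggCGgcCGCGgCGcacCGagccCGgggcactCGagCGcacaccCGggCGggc
Kcna4: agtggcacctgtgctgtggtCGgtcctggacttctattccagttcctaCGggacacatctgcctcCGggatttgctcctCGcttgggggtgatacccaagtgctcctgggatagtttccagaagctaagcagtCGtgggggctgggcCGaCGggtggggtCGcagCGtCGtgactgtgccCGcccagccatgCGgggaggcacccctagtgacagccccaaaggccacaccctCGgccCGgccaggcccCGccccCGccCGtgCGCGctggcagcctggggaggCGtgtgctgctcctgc
The Kcnd2 window held 26 CG dinucleotides and 68.7% G or C, the Kcnh1 window 27 and 66.0%, and the Kcna4 window 20 and 67.7%. Each of these windows thus held at least 15 CG, as did 71.3% of other genes with a window above the floor. Whether CG content goes with the direction of a difference was not tested. A window was found for 25 of the 34 genes above the floor and for 44 of the 54 below it. The median number of CG, which reads the same on both strands, was 17 above the floor and 10 below it, with the windows of a gene averaged. For other genes on the array it was 21 above the floor and 4 below. At least 15 CG were present in 56.0% of the 25 potassium channel genes with a window above the floor and 34.1% of the 44 below it. Among other genes with a window the share was 71.3% of 9210 above the floor and 19.3% of 7711 below it, and it was 34.6% of all 32851 windows in the table.

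K2P channels give the background leak of potassium. Of 6 genes above the floor 4 lay below 0, beside 61.3% of all tested genes. The median of the 6 was -0.13 and became 0.01 after centring the arrays. That of all tested genes went from -0.07 to 0.065. Kcnk16, a K2P channel of the pancreatic islet, read 5.61 and 5.55 in siNF45 and 5.88 and 5.62 in siNTC. The groups came within 0.01 of each other, and the difference was -0.17 (95% interval -0.52 to 0.18, limma adjusted p = 0.590), or -0.04 without siNTC replicate 1 and also -0.04 after centring. Kcnk1, a widely expressed weak rectifier, read 4.54 and 4.36 in siNF45 and 4.78 and 4.62 in siNTC. It differed by -0.25 (SE 0.14, limma adjusted p = 0.410), or by -0.16 without siNF45 replicate 2. Kcnk10, a channel gated by stretch and lipids, had the smallest p of the subfamily. It read 1.78 and 1.79 in siNF45 and 2.16 and 2.35 in siNTC, close to the floor in both groups, and differed by -0.47 (SE 0.13, limma adjusted p = 0.174). Kcnk9, Kcnk6 and Kcnk12 differed by 0.14, 0.19 and -0.08.

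Of the Kir genes, 11 of 13 were below the floor, at means from 1.03 to 1.43. Kcnj6, a pore subunit opened by G proteins, read 2.97 and 2.94 in siNF45 and 3.15 and 2.84 in siNTC. The siNF45 values lay between the siNTC values, and the difference was -0.04 (95% interval -0.41 to 0.33). Kcnj14 differed by 0.05 (95% interval -0.29 to 0.38). The partner pore genes of Kcnj6 in G protein-gated channels, Kcnj3, Kcnj5 and Kcnj9, were below the floor, and so was Kcnj8, the other KATP pore gene.

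The 3 calcium- and sodium-activated genes above the floor differed by 0.01 to 0.08 on their brightest probe sets. Kcnma1 encodes the BK channel, which opens on calcium and voltage together, and its 2 probe sets gave unlike levels. The brightest read 10.88 and 10.91 in siNF45 and 10.88 and 10.89 in siNTC, a difference of 0.01 (95% interval -0.28 to 0.30). The other read 4.95 and 4.80 in siNF45 and 5.30 and 5.02 in siNTC, and its group means differed by -0.29. Both probe sets put Kcnma1 above the floor, but they disagree on the level and the sign, and whether the brightest measures Kcnma1 alone was not tested. Kcnn2, a small-conductance calcium-activated channel, read 2.52 and 2.02 in siNF45 and 2.33 and 2.14 in siNTC. The groups overlapped, with a difference of 0.04 (95% interval -0.45 to 0.52). Kcnt1, opened by sodium, differed by 0.08 at the floor, and Kcnn1, Kcnn3, Kcnn4, Kcnt2 and Kcnu1 were below it. Genes were put in this group by symbol, so its name need not hold for each of them, Kcnu1 among these.

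Auxiliary subunits alter the traffic and gating of the pores. Of the 7 above the floor 4 lay below 0 and 2 above, beside 61.3% of all tested genes below 0. The median of the 7 was -0.11 and became 0.02 after centring. That of all tested genes went from -0.07 to 0.065. Kcnip4, a calcium-binding partner of the A-type pores, read 5.14 and 4.73 in siNF45 and 5.97 and 5.35 in siNTC. The groups did not overlap but were spread, and the difference was -0.73 (SE 0.25, 95% interval -1.34 to -0.11, limma adjusted p = 0.237), or -0.415 without siNTC replicate 1. The related Kcnip1 and Kcnip3 differed by 0.10 (95% interval -0.21 to 0.40) and 0.01 (95% interval -0.36 to 0.37). Kcnab2, a beta subunit of Kv channels, read 3.17 and 3.26 in siNF45 and 3.75 and 3.30 in siNTC. It differed by -0.31 (SE 0.18, limma adjusted p = 0.432), or by -0.085 without siNTC replicate 1. The BK beta subunits Kcnmb2 and Kcnmb1 differed by -0.18 and -0.11, and Kcnab3 by 0. All 5 Kcne genes measured, which encode partners of KCNQ and other pores, were below the floor.

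Over all 34 genes above the floor, 19 lay below 0, 14 above and 1 at 0. Those below 0 made 55.9%, beside 61.3% of all tested genes. The median difference was -0.06 beside -0.07 for all tested genes. At an unadjusted p under 0.05, 7 were lower, or 20.6%, beside 13.2% of all tested genes, and 1 was higher, beside 4.02%. Without overlap between groups, 14 were lower and 2 higher, beside 32.6% and 15.2%. The lower ones include Kcnc1, which reached the floor only through siNTC, so its place in that count is no support. Centring the arrays on the median of tested genes added 0.13 to every difference. The median of the 34 then was 0.07, beside 0.065 for all tested genes. The 54 genes below the floor had means from 1.03 to 1.64 and were not tested as designed. Their differences ran from -0.55 for Kcnh4 to 0.44 for Kcnh8, with a median of -0.04.

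Partner genes without a Kcn symbol were read from the same fit. Of 29 listed, 19 were above the floor, 12 of them below 0 and 7 above, with a median of -0.08, and none passed. That is 63.2% below 0, beside 61.3% of all tested genes. At an unadjusted p under 0.05 there was 1 higher and 0 lower, beside 4.02% and 13.2% of all tested genes. That gene was Lgi1, a secreted protein of the Kv1-type channel complex, which read 5.74 and 5.67 in siNF45 and 5.16 and 5.22 in siNTC. The groups were apart, and it differed by 0.52 (SE 0.12, limma adjusted p = 0.140). Abcc8, the sulfonylurea receptor of the KATP channel, differed by -0.26 (SE 0.13, limma adjusted p = 0.371). Dlg2, a scaffold protein, differed by -0.27 (SE 0.14, limma adjusted p = 0.398). Amigo1, a partner of Kv2-type channels, differed by -0.47 (SE 0.36, limma adjusted p = 0.559) and turned to 0.03 without siNF45 replicate 2. Dpp6 and Dpp10, auxiliary subunits of the same A-type pores as Kcnip4, differed by 0.13 and 0.06.

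Several of the genes that led in the lower direction were long, but the other long genes lay on both sides of 0. Kcnq3 spans 300.3 kb from annotated start to end, Kcnd2 514 kb, Kcnh1 321 kb, Kcnip4 1136 kb, Kcnh5 280.1 kb and Kcnk10 149 kb, while Kcnh2 spans 32.1 kb. Kcnma1 spans 713 kb and differed by 0.01 on its brightest probe set and by -0.29 on the other. Kcnn2 spans 417 kb and differed by 0.04, Kcnip1 spans 364 kb and differed by 0.10, and Kcnc2 spans 196 kb and differed by 0.05. Kcnb2 spans 437 kb and differed by -0.27, and Kcnmb2 spans 298 kb and differed by -0.18. Kcnh7 spans 491 kb and differed by -0.15, and Kcnj6 spans 253 kb and differed by -0.04. Among the 34 genes, 6 of 14 over 100 kb were lower at an unadjusted p under 0.05, against 1 of 20 shorter ones. Of the 14 over 100 kb, 10 lay below 0, beside 62.5% of all other tested genes over 100 kb. The median difference was -0.22 over 100 kb and 0.00 up to 100 kb. Among all other tested genes with a span, 16.6% of 1563 over 100 kb and 12.7% of 10129 shorter ones were lower at that p, with medians of -0.08 and -0.07. Spearman's rho between span and difference was -0.37 across the 34 genes and -0.02 across 11692 other genes, which share the same 4 arrays and are not independent replicates. The split at 100 kb was chosen after the values were seen. At 50 kb the counts were 6 of 18 and 1 of 16, and at 200 kb they were 5 of 12 and 2 of 22. What part span has in these differences was not tested.

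**Figure D4:**
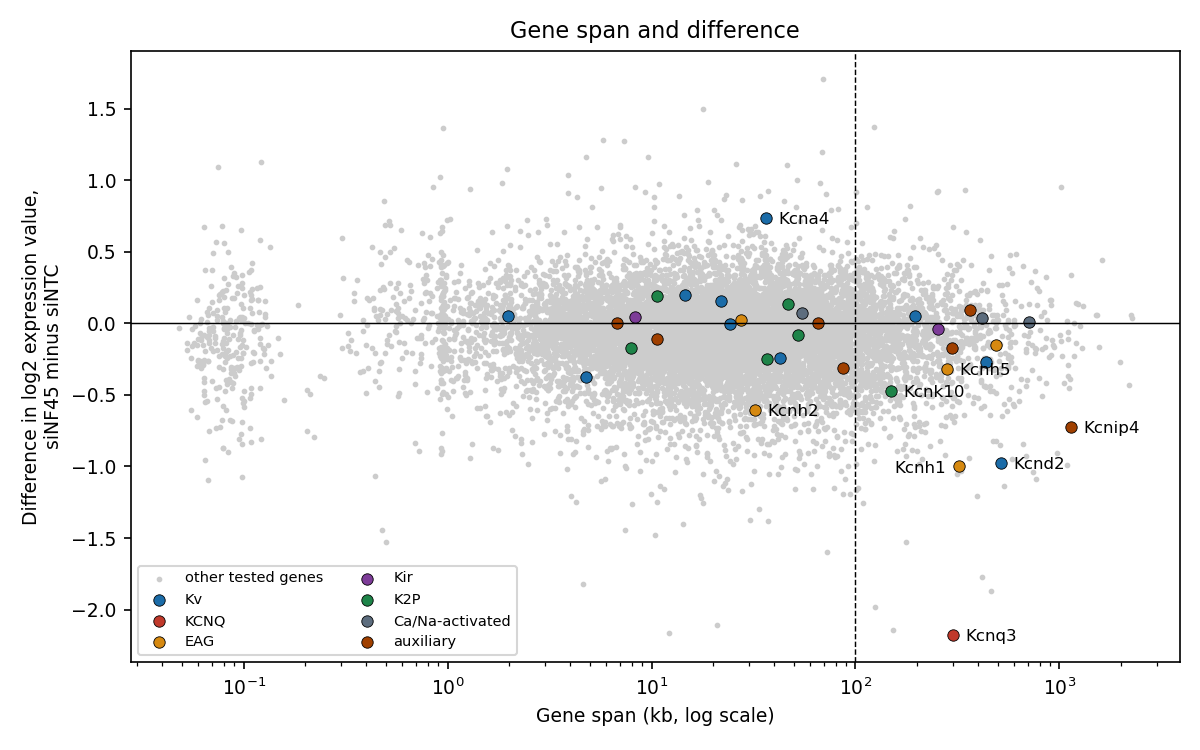
Gene span in kb (horizontal axis, log scale) against the difference in log2 expression value, siNF45 minus siNTC (vertical axis), for the 34 potassium channel genes above the signal floor, coloured by subfamily, and all other tested genes in grey; the dashed line marks 100 kb. Of the 7 named genes below 0, Kcnh2 at 32.1 kb is the one left of that line.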

How the data were processed

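Total RNA (250 ng per sample) from 4 samples was hybridised to Affymetrix Mouse Gene 2.1 ST arrays, 1 per sample, per the labels' protocols. The deposited table gives, for each array, 1 log2 value per probe set, which the authors made with Transcriptome Analysis Console, per the submitters' processing notes. Its version, algorithm, background correction and log base were not given in any source used here. Values ran from 0.12 to 12.21 and were taken as log2, with array medians of 1.64 to 1.66. Direction follows the sample labels. No detection call or batch was used, and the number of arrays limits the precision.

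Of 41345 probe sets, 23521 carried 1 symbol, 1814 several and 16010 none. By gene number 23328 were found in RefSeq's GRCm38.p6 gene table, and 0 symbols needed updating. The brightest probe set of each gene was kept where its mean over 4 arrays reached the median of all probe sets. The resulting 11742 genes were fitted with limma 3.58.1 in R 4.3.3 (lmFit, eBayes, no covariate), with Benjamini-Hochberg adjustment over all of them and a threshold of 0.05. The fit had 2 residual and 3.69 prior degrees of freedom. The script was tested on simulated data.

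Genes were named where they passed, among the 12 next smallest p, as the 2 brightest of a subfamily, as KCNQ genes, or among the 4 partners with the smallest p. Members and lists were chosen with earlier results of these data known. Further genes are named after their values were seen, to describe a subfamily. Alternatives were other floors, quantile normalization, centring, trended or robust eBayes, a replicate block, averaged probe sets, leaving out each array and a threshold of 0.10. Both groups use the numbers 1 and 2 for replicates, and same-numbered deviations correlated at 0.0062 over genes, so they were not taken to pair samples.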

Additional observations from a re-analysis of the deposited data

How the results depend on the processing

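Potassium channel genes called numbered 1 as designed, without a floor, with averaged probe sets and with robust eBayes. They numbered 2 (Kcnq3 and Kcnd2) at the 70th percentile floor and 2 after quantile normalization, 3 (with Kcnh1) with a trend in eBayes and 3 at an adjusted p under 0.10, and 4 (with Kcna4, higher) after centring. Over all genes the count was 10 as designed, 87 at the 70th percentile floor, 62 after quantile normalization, 172 after centring, 174 with a trend and 190 at 0.10. The replicate block gave 0 potassium channel genes and 0 genes in all, with Kcnq3 at -2.18 and a limma adjusted p of 0.258, and 1909 genes at an unadjusted p under 0.05; it leaves fewer residual degrees of freedom. Without 1 array, each of the 4 fits called 0 potassium channel genes and 0 genes in all, while 1230 to 1689 genes had an unadjusted p below 0.05. The lone array of a group is then assumed to vary like the other group. Genes above the floor numbered 88 with no floor, 20 at the 70th percentile, by construction, and 32 to 36 without 1 array. Their median difference was -0.17 at the 70th percentile floor, 0.07 after centring (0.065 over all tested genes), and -0.17 to -0.02 without 1 array. Of 292 alternative values of 25 named genes, 11 turned in sign, all of genes not called and all with limma adjusted p of at least 0.566. Kcnj6 turned to 0.0213 after quantile normalization and 0.09 after centring, and ranged from -0.195 to 0.115 without 1 array. Kcnma1 turned to -0.138 with probe sets averaged and ranged from -0.005 to 0.025 without 1 array. The ranges without 1 array were -0.055 to 0.145 for Kcnj14, -0.215 to 0.285 for Kcnn2, -0.055 to 0.105 for Kcnh6 and -0.97 to 0.03 for Amigo1. The cause of these turns was not tested. With 2 arrays per group, dim genes near the floor are measured with least contrast to background.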
